A study of Danio rerio with 10 samples.

Results

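The transcripts described here are *hmx2* (ENSDARG00000070954) and *hmx3a* (ENSDARG00000070955), the genes whose translation was blocked in this experiment. They were chosen by these identifiers, 2 of the 15369 genes in the deposited table. DKD morphant cells were FAC-sorted at 27 hpf from zebrafish embryos injected at the one-cell stage with 3.5 nl of a morpholino mixture, and these cells were compared with the same sort from uninjected wild-type control embryos. The injected mixture held 2 ng/nl of a translation-blocking *hmx2* morpholino, 2 ng/nl of a translation-blocking *hmx3a* morpholino and 5 ng/nl of a control *p53* morpholino. DKD embryos were kept at 32°C after 9 hpf to offset their slower development, and controls at 28.5°C. Both groups carried the SU41 transgene, in which the conserved *hmx* enhancer CNEIII and a *cfos* minimal promoter drive GAL4-VP16 and, through UAS, EGFP in V1 and dI2 spinal interneurons but not in the ear or lateral line. Only embryos with a slight curled-down tail were kept as morphants. Each group had 5 biological replicates, and the 2 columns used give 1 mean per group, so that no spread between replicates could be computed and no test was run on any value below. The authors' own P-values were not used. Injection, the *p53* morpholino, the temperature and the knockdown differed together between the groups, and their parts in a difference cannot be told apart.

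Hmx proteins are homeodomain transcription factors of the NK-like class. In zebrafish, *hmx2* and *hmx3a* lie next to each other in the genome and are expressed in the ear, in the lateral line and in dI2 and V1 interneurons of the spinal cord. dI2 cells are excitatory glutamatergic neurons and V1 cells are inhibitory neurons. A translation-blocking morpholino is an antisense oligonucleotide that pairs with an mRNA around its start codon and hinders the ribosome. It does not cut the mRNA, so the transcript level is no measure of whether the knockdown worked, and it does not check the group labels.

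The *hmx2* and *hmx3a* morpholinos are shown because they define where each targeted transcript is bound, written 5′ to 3′ with the complement of the start codon in capitals.
*hmx2* morpholino: ttccgctgtcctccgaattattCAT
*hmx3a* morpholino: acgtatcctgtgttgtttcgggCAT
The reverse complements give the intended sites in the mRNAs, with the ATG in capitals.
*hmx2* site: ATGaataattcggaggacagcggaa
*hmx3a* site: ATGcccgaaacaacacaggatacgt
Both morpholinos are 25 bases long. In both sites the ATG takes the first bases, so that the whole of each site lies at or after the start codon. Aligned at their 3′ ends, the morpholinos carry the same base at 6 of 25 positions, and the longest run that they share anywhere is 4 bases. The sites were not compared with transcript sequences here.

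Both targeted transcripts had higher means in DKD morphant cells than in control cells. The authors' group mean of *hmx2* was 695 TMM-normalized reads in DKD morphant cells, against 215 in uninjected control cells, a 3.24-fold difference (log2 difference 1.70). The mean of *hmx3a* was 1804 normalized reads in DKD morphant cells and 736 in uninjected control cells, which is 2.45-fold (log2 difference 1.29). In DKD morphants, 365 of all 15369 genes (2.37%) were at least 2-fold higher, and the median log2 difference of all genes was 0.01. The quartiles of all genes were -0.21 and 0.23 on the log2 scale. The *hmx2* difference ranked 104 and the *hmx3a* difference ranked 214, counting from the gene with the largest fold. Reads assigned to the wrong member of this related pair would leave their sum unchanged. The summed mean was 2499 normalized reads in DKD morphants and 950.3 in uninjected controls (log2 difference 1.39).

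Most genes ahead of the pair in fold had means under 100 in both groups. Of the 1854 genes whose mean reached 100 in DKD morphants or in uninjected controls, 35 (1.89%) were past 2-fold in the direction of the pair, and among these 1854 *hmx2* ranked 17 by fold and *hmx3a* 25. With a minimum set at the level of the member itself, the rank follows from that choice and is given as a description. In uninjected controls, 683 genes had a mean at or above that of *hmx2*, itself included. Of these 683 genes, 3 reached 2-fold in DKD morphants. They were *gch2* (ENSDARG00000099101), *hmx2* and *hmx3a*. *gch2*, a GTP cyclohydrolase gene used in pteridine pigment synthesis, was named after its values were seen. Its mean was 1252 normalized reads in DKD morphants and 329.8 in uninjected controls (log2 difference 1.92). The next gene by fold among the 683, *smyhc1*, a slow muscle myosin gene, had a log2 difference of 0.82. Of the 132 genes with a control mean at or above that of *hmx3a*, only *hmx3a* was at least 2-fold higher in DKD morphants. Genes at least 2-fold lower were not counted within these sets. They included the skin gene *krt4* (log2 difference -1.72) and the chaperone gene *hsp70l* (-1.002), both with control means above that of *hmx3a*. As a difference in normalized reads and not as a fold, *hmx3a* was 1068 higher in DKD morphants, which was the first of all 15369 genes, ahead of *ptmaa*, a prothymosin gene, at 984.9. *hmx2* ranked 6 on the same measure, at 480.3. These counts are not per transcript length, and a longer transcript gives more reads per molecule.

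**Figure D1:**
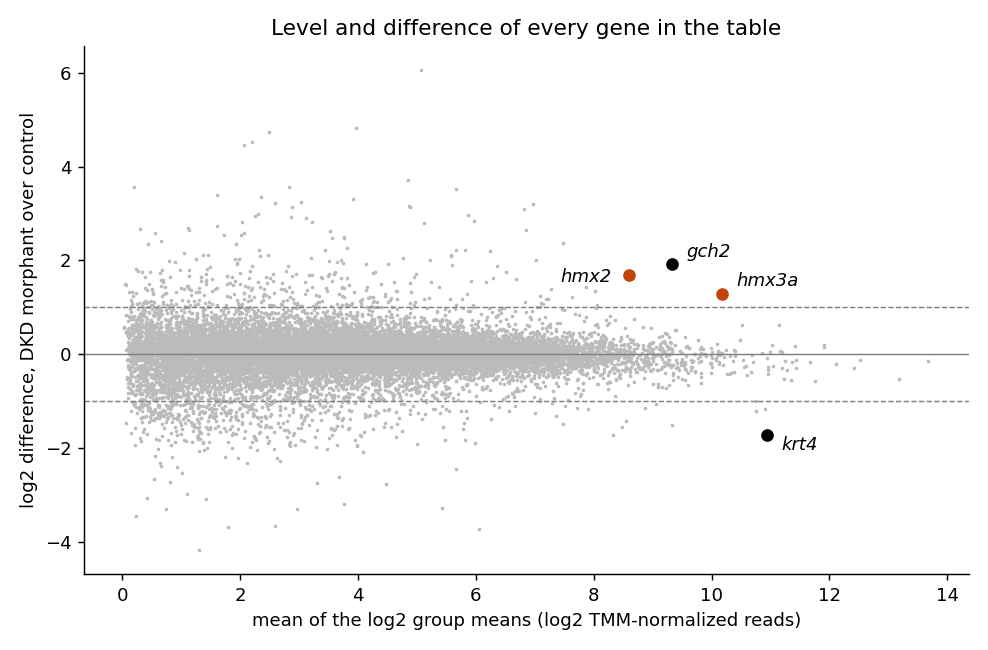
Each point is 1 of the 15369 genes, with the mean of its log2 group means on the x axis and its log2 difference (DKD morphant over uninjected control) on the y axis; dashed lines mark 2-fold and no replicate error is available. *hmx2* (1.70) and *hmx3a* (1.29), in red, lie above the upper line at high levels near *gch2* (1.92), while *krt4* (-1.72) lies below the lower line.

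The pair was already abundant in control cells, and both genes moved up in the order of levels. Cells of both groups were sorted on EGFP driven by an *hmx* enhancer. The paper's quantitative RT-PCR found both transcripts enriched in EGFP-positive cells. High levels of the pair beside other genes are therefore given as a description. *hmx3a* ranked 29 of 15369 in DKD morphants and 132 in uninjected controls, where rank 1 is the gene with the highest mean. *hmx2* ranked 120 in DKD morphants and 683 in uninjected controls. In units of the median gene, *hmx3a* stood at 131.2 times the median in DKD morphants and 55.7 times in uninjected controls. For *hmx2* these multiples of the median were 50.5 in DKD morphants and 16.2 in uninjected controls. All 28 genes above *hmx3a* in DKD morphants were also above it in uninjected controls, and *hmx3a* passed 103 others. Likewise, the 119 genes above *hmx2* in DKD morphants were all above it in uninjected controls, and it passed 563. *hmx3a* alone took 0.222% of the summed means in DKD morphants, against 0.0878% in uninjected controls, and *hmx2* took 0.0855% in DKD morphants, against 0.0256% in uninjected controls.

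**Figure D2:**
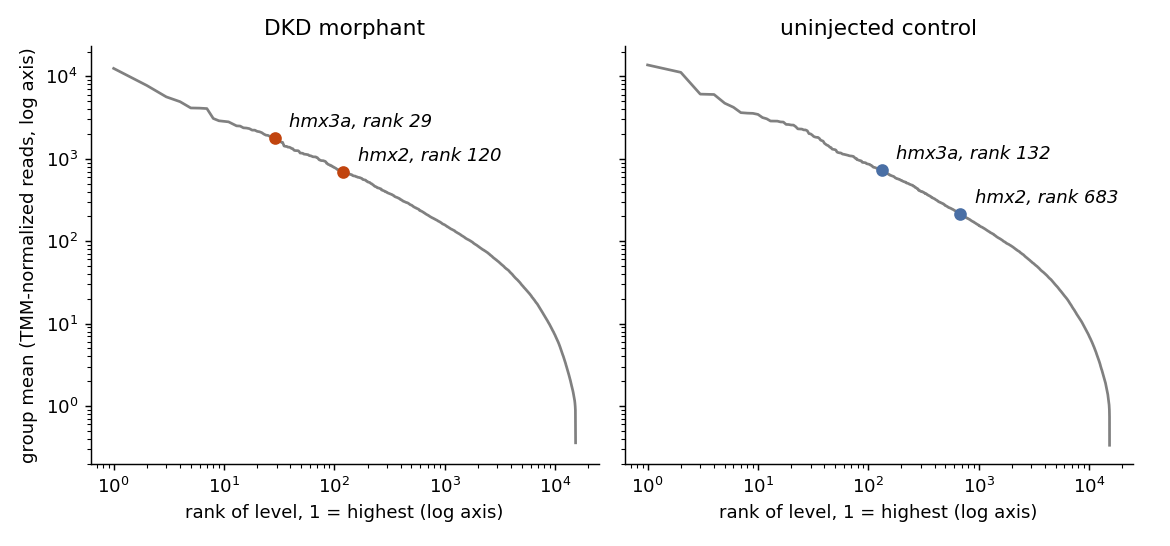
The mean of every gene (y axis, TMM-normalized reads, log axis) is plotted against its rank (x axis, log axis) in DKD morphants (left) and uninjected controls (right). *hmx3a* is at rank 29 in DKD morphants and 132 in uninjected controls, and *hmx2* at rank 120 in DKD morphants and 683 in uninjected controls.

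*hmx3a* gave more reads than *hmx2* in both groups, by a smaller factor in the morphants. The ratio of *hmx3a* to *hmx2* normalized reads was 2.60 in DKD morphants and 3.43 in uninjected controls. Transcript lengths were not used here, so neither ratio is a ratio of molecules, but length cancels when the ratios are compared. The morphant ratio was 0.757 times the control ratio, a log2 difference of -0.40, since *hmx2* differed by the larger fold. *hmx3a* made up 72.2% of the summed reads of the pair in DKD morphants and 77.4% in uninjected controls. With 1 mean per group, it was not possible to test whether this shift exceeds the spread between replicates. Of the summed difference of the pair in normalized reads, *hmx3a* contributed 69.0% and *hmx2* 31.0%.

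Most marker genes of the sorted cells differed by less than the pair. Of 11 genes listed as V1 or dI2 markers, 8 were paired with an identifier in the table. Of these 8, 1 was at least 2-fold higher in DKD morphants, where 2.37% of all genes were, and none was at least 2-fold lower, where 3.29% of all genes were. The other 7 lay between, and the 8 had a median log2 difference of 0.16, beside 0.01 over all genes. The V1 marker *en1b*, which encodes an Engrailed homeodomain protein, had 672.4 normalized reads in DKD morphants and 753.8 in uninjected controls. The LIM homeobox gene *lhx5*, listed here for dI2 cells, had 441.2 in DKD morphants and 556.6 in uninjected controls. It was the single gene of the 5 listed for dI2 cells with a lower mean in DKD morphants. Of these 5 genes, *foxd3* is listed for V1 cells as well. Whether the others are restricted to dI2 cells was not tested, so their differences cannot be given to dI2 cells alone. For *foxd3*, a forkhead gene listed for both cell types, the means were 394.5 in DKD morphants and 340.5 in uninjected controls. All of these 3 genes were well above the median gene in both groups. The POU homeobox gene *pou4f1*, listed for dI2 cells, had 91.5 in DKD morphants and 61.0 in uninjected controls (log2 difference 0.58). The LIM homeobox genes of the same list had smaller log2 differences, 0.19 for *lhx1a* and 0.14 for *lhx1b*. The paired-box gene *pax8*, listed for V1 cells, had 27.8 in DKD morphants and 38.9 in uninjected controls. The gene past 2-fold was *foxp2*, a forkhead gene, from low means of 14.1 in DKD morphants and 5.48 in uninjected controls. It was listed here for V1 cells, whereas the paper uses it as a dI2 marker that V1 cells also express. Its difference therefore cannot be given to 1 of the 2 cell types.

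Set against the markers in normalized reads, which are not per length, the pair stood above all 8 in DKD morphants and above most in uninjected controls. The mean of *hmx3a* was above all 8 markers in DKD morphants, while 1 of them, *en1b*, was above it in uninjected controls. None of the 8 was above *hmx2* in DKD morphants, and 3 were above it in uninjected controls. *hmx3a* equalled 99.9% of the summed marker reads in DKD morphants and 38.6% in uninjected controls, and *hmx2* equalled 38.5% in DKD morphants and 11.3% in uninjected controls. The summed markers themselves were 1806 normalized reads in DKD morphants and 1904 in uninjected controls. Scaled to that sum, an alternative added once the values were known, the log2 differences were 1.77 for *hmx2* and 1.37 for *hmx3a*. Scaled to the summed pan-neuronal genes *elavl3*, *elavl4* and *gap43*, they were 1.60 and 1.20. In sorted bulk samples, more cells that express a gene and more RNA per cell cannot be told apart.

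**Figure D3:**
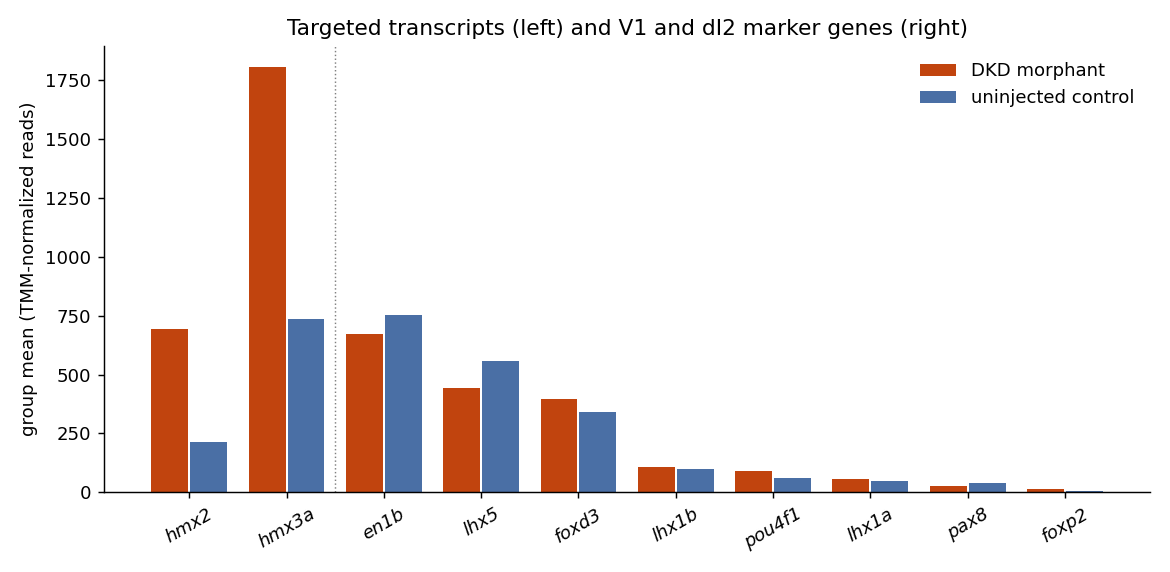
Bars give the authors' group means (y axis, TMM-normalized reads, from 0) of *hmx2*, *hmx3a* and 8 V1 and dI2 marker genes, with DKD morphants in red and uninjected controls in blue; no replicate values were available for error bars. The morphant bars of *hmx2* (695) and *hmx3a* (1804) stand far above their control bars (215 and 736), whereas those of *en1b*, *lhx5* and *foxd3* stay near theirs.

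Since the mixture included a *p53* morpholino, genes of the p53 response were compared as well. Of 7 listed genes reported here 6 had values, with 1 at least 2-fold higher in DKD morphants (2.37% of all genes), 1 at least 2-fold lower (3.29% of all genes) and 4 between. The median log2 difference of the 6 was 0.21, beside 0.01 over all genes. The gene past 2-fold upwards was *casp8*, an initiator caspase gene with low means of 3.18 in DKD morphants and 1.54 in uninjected controls. *bbc3*, which encodes the pro-apoptotic protein Puma, was at least 2-fold lower, at 4.37 in DKD morphants and 9.47 in uninjected controls. The cyclin G gene *ccng1* lay just under 2-fold, at 371.1 in DKD morphants and 186.4 in uninjected controls. *mdm2*, which encodes a ubiquitin ligase, had 20.7 in DKD morphants and 19.9 in uninjected controls. The part of the *p53* morpholino in the *hmx2* and *hmx3a* differences was not tested.

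Genes tied to the role of the pair were compared in the same way. Hmx3a is required for the glutamatergic fate of dI2 interneurons, and of 8 listed neurotransmitter genes 3 had values, none of them glutamatergic. The vesicular inhibitory amino acid transporter gene *slc32a1* had 486.1 normalized reads in DKD morphants and 613.5 in uninjected controls. The glycine transporter gene *slc6a5* had 415.3 in DKD morphants and 532.2 in uninjected controls. *gad2*, which encodes an enzyme of GABA synthesis, was low in both groups, at 5.21 in DKD morphants and 2.77 in uninjected controls. None of these 3 genes differed by 2-fold. Of all genes, 2.37% were at least 2-fold higher and 3.29% at least 2-fold lower, so a count over 3 genes says little. Of the 6 genes that the study had examined in these samples, and which are therefore not independent of them, 4 were paired with identifiers and 3 of these reached 2-fold in DKD morphants, as 2.37% of all genes did. The co-repressor gene *skor1a* had 105.0 in DKD morphants and 7.94 in uninjected controls (log2 difference 3.72), and the neurofilament gene *nefma* had 417.1 in DKD morphants and 163.4 in uninjected controls (1.35). *skor2* had 3.94 in DKD morphants and 0.334 in uninjected controls, the lowest control mean in the table, so that its fold rests on very few reads. The intermediate filament gene *neff1*, at 188.0 in DKD morphants and 125.4 in uninjected controls, was under 2-fold. No value was used here for *skor1b*, which the paper describes as possibly raised, or for *ebf3a*, which it gives as under 2-fold. The paper found too few reads to assess *skor2*. In *hmx2;hmx3a* deletion mutants it counted significantly more cells expressing *skor1a* and *nefma*. It found no significant difference there for *skor1b*, *skor2*, *ebf3a* or *neff1*.

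Some genes of other cells, and 1 heat response gene, were also past 2-fold between the groups, and their part in the *hmx2* and *hmx3a* differences was not tested. All 3 listed skin genes, *krt4*, *krt5* and *cyt1*, were at least 2-fold lower in DKD morphants, where 3.29% of all genes were, and their summed mean was 1338 normalized reads in DKD morphants and 4259 in uninjected controls. The 3 skeletal muscle genes with values, of 5 listed, summed to 2818 in DKD morphants and 3608 in uninjected controls, so that transcripts of muscle and skin were present in both sorted populations. That sum was carried by *actc1b* and *ckma*. In contrast, *myod1*, a myogenic transcription factor gene, was at least 2-fold higher in DKD morphants, where 2.37% of all genes were. Its mean was 4.90 in DKD morphants against 2.35 in uninjected controls. The blood globin gene *hbae1.1*, the single blood gene with a value of 3 listed, had 168.0 in DKD morphants and 23.3 in uninjected controls. The neural crest genes *sox10* and *crestin*, of 3 listed, summed to 29.5 in DKD morphants and 8.85 in uninjected controls. Of these, *sox10* was at least 2-fold higher in DKD morphants (2.37% of all genes). Progenitor and glial genes, 4 of 5 listed, summed to 145.3 in DKD morphants and 96.8 in uninjected controls. Of these, *her4.1*, a Notch target, was at least 2-fold higher in DKD morphants (2.37% of all genes). Its means were 89.4 in DKD morphants and 43.1 in uninjected controls, and it carried most of the difference between the sums. The log2 differences of *sox2*, *gfap* and *olig2* were -0.07, 0.19 and 0.15. Of 5 heat response genes with values, 1 was at least 2-fold lower in DKD morphants (3.29% of all genes). None was at least 2-fold higher (2.37% of all genes). The lower gene was the chaperone gene *hsp70l*, at 1223 in DKD morphants and 2451 in uninjected controls. It was barely past 2-fold (log2 difference -1.002). The other 4 were under 2-fold, and the median log2 difference of the 5 was -0.13.

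Most of the few matched genes listed for other neuron classes had low means. The motoneuron genes *mnx1* and *mnx2b*, of 7 listed, summed to 5.66 normalized reads in DKD morphants and 3.91 in uninjected controls. The V2b and KA genes *gata3* and *tal1*, of 4 listed, summed to 25.5 in DKD morphants and 14.5 in uninjected controls. Of these, *tal1* was at least 2-fold higher in DKD morphants (2.37% of all genes). *lbx1a*, 1 of 3 genes listed here for dI4 and dI6 cells, had 1.57 in DKD morphants and 2.08 in uninjected controls. The paper gives it for dI5 cells as well. The exception was *prdm14*, 1 of 4 genes listed here for dI5 and Rohon-Beard cells, at 170.2 in DKD morphants and 172.7 in uninjected controls. Whether it is restricted to these cells was not tested. The notochord gene *tbxta*, 1 of 3 listed, had 8.17 in DKD morphants and 4.46 in uninjected controls. The listed genes of V2a, V3 and dI1 cells were looked up by symbol, and none was matched. Whether they are present under another symbol was not tested.

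**Figure D4:**
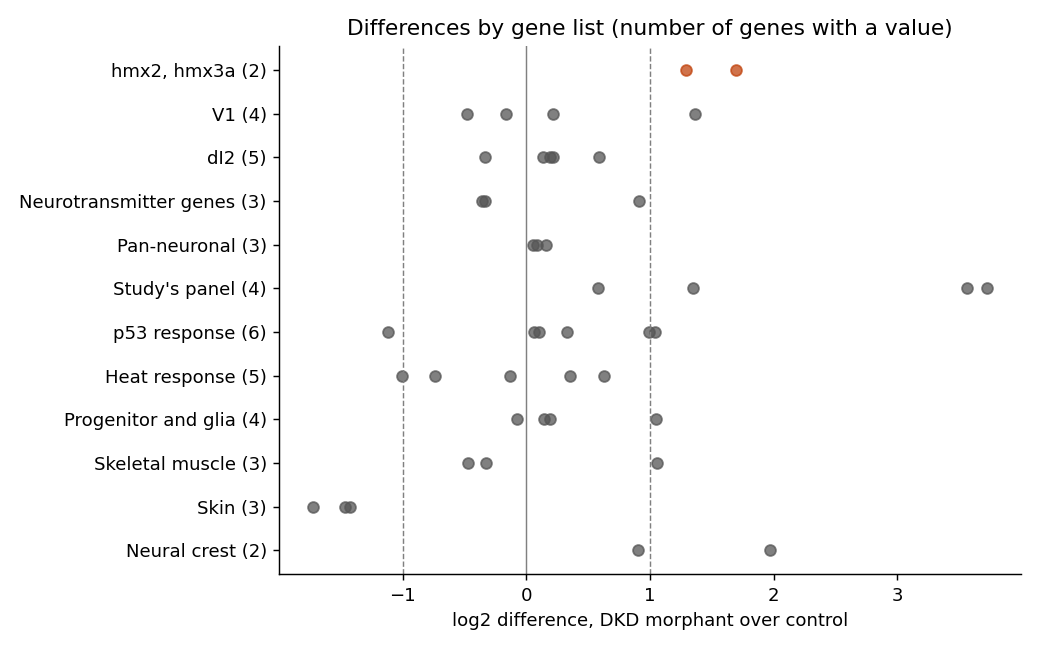
Each point is 1 gene with a value, placed by its log2 difference (x axis, DKD morphant over uninjected control) in the row of its list, with the number of genes beside the list's name and dashed lines at 2-fold. *hmx2* and *hmx3a* lie right of the upper line, the V1 and dI2 genes other than *foxp2* lie between the lines, and the 3 skin genes lie left of the lower line.

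*hmx2* and *hmx3a* are neighbours on chromosome 17, and no annotated gene starts between them in the RefSeq table used here. Of the 3 genes before and the 3 after the pair in order of start, 1 of 6 was matched by symbol. This was *ikzf5*, an Ikaros-family zinc finger gene (ENSDARG00000056491). Its mean was 72.4 normalized reads in DKD morphants and 61.8 in uninjected controls, a log2 difference of 0.23. In that table the *ikzf5* locus extends across both *hmx* genes, so it does not lie to 1 side of them. No gene that does was matched, and whether such a gene is present under another symbol was not tested. Where genes overlap and strand is not recorded, reads cannot always be assigned to 1 of them, and whether the annotation used for counting has this overlap is not given in the sources used here. The *ikzf5* mean is small beside those of the pair in both groups. The family members *hmx1*, *hmx3b* and *hmx4* were also looked up by symbol, and none was matched.

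The genes with levels most like those of the pair are given as a description. Likeness was measured as the distance between genes in a plane of log2 morphant mean and log2 control mean, over these 2 groups, so that it already holds the difference between them. Closest to *hmx2* was *anxa13l*, an annexin gene, at a distance of 0.68 log2 units, followed by *her4.2*, a Notch target, at 0.76 and *smyhc1* at 0.77. Closest to *hmx3a* was *nell2*, which encodes a secreted neuronal protein, at 0.69. The next were *tmeff1b* at 0.77 and *vcp*, an ATPase gene of protein turnover, at 0.83.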

How the data were processed

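One deposited table of 15369 genes was used. Per the labels and the methods, the authors worked in Partek Flow, where reads were trimmed, mapped with STAR 2.6.1d, scaled by TMM and compared by Gene-Specific Analysis. The 2 columns used hold the authors' least squares mean per group, a signal in TMM-normalized reads. The other columns, the authors' P-value, false discovery rate, ratio and fold change, were not used. The methods name the Lawson annotation, whereas the rows carry Ensembl gene identifiers. Neither the genome build nor a filter on low values is given in the sources used here, and the lowest average of the 2 group means was 1.05. The table gives neither the depth of each sample nor values of single replicates, and no interval is given for that reason.

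Symbols came from a reference table that paired 14905 identifiers (97.0%), ignoring case, and a symbol paired with several identifiers was left out. A listed gene without a value was not matched to a single identifier by symbol, and may still be present under another symbol. The RefSeq table of assembly GRCz12tu gave gene order alone. Log2 differences, ranks and shares were computed with Python 3.11.15, NumPy 2.4.6 and pandas 2.3.3 without a pseudocount, and were checked on simulated means with 200 changed genes. A gene was called when past 2-fold. Named genes were the pair, its family, its neighbours, the 3 nearest genes by level and the listed genes. One further listed gene is not reported here. The members and lists were chosen with earlier results of these data known. Alternatives were pseudocounts of 1 and 5, other scalings, means of at least 10 or 100 in either group, and a 1.5-fold minimum.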

Additional observations from a re-analysis of the deposited data

How the results depend on the processing

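No paired analysis was possible because the 2 columns used are means over replicates, although the labels give both groups the same replicate numbers. For the same reason no replicate was left out. Division by protein or transcript length was not run. Of 38 alternatives, 31 stayed within 1.5 times of the value reported, none changed direction and 7 moved further. Most could not have moved that far, so the tally says little about how firm the values are. The largest shift by a scaling was 0.097 log2 units, and a minimum mean of 10 cannot change the level ranks of the pair. The 7 that moved were ranks by fold and the share of genes past the fold minimum. Over all alternatives the log2 difference was 1.60 to 1.77 for *hmx2*, 1.20 to 1.37 for *hmx3a* and 1.30 to 1.47 for their sum. The scalings multiply every gene of a group alike, so these ranges do not stand in for an error. The rank by fold moved with the genes ranked. It was 68 for *hmx2* and 113 for *hmx3a* among genes with a mean of at least 10, 17 and 25 among those with a mean of at least 100, and 41 and 67 with a pseudocount of 5, since the genes removed or shrunk have low means. The share of all genes raised was 7.18% with a 1.5-fold minimum.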
